A study of Mus musculus with 8 samples.

Results

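A set of 10 vasoactive signalling genes was followed across white fat depots: the angiotensin genes Agt, Ace and Agtr1a, the endothelin receptor genes Ednra and Ednrb, the natriuretic peptide receptor genes Npr1 and Npr3, the cGMP-dependent kinase gene Prkg2 and the ATP-sensitive potassium channel genes Abcc9 and Kcnj8. They are 10 of 17967 gene symbols in the count table, and all 10 were among the 13694 genes that passed the filter on low counts. The set was chosen because Agt, Ednra, Prkg2 and Abcc9 differ strongly between depots, so the levels and differences of the 10 genes are given as a description, with no p-values, and their counts past a threshold are set beside the share of all genes with nothing read from them. Bulk RNA sequencing was done on stem cells of adipose tissue, fibroblast-like cells that can become adipocytes, sorted by flow cytometry from collagenase-digested fat of male C57BL/6J wild type mice on a chow diet. All groups share strain, sex and diet, and differ in depot, with 2 libraries for each: SWAT is the subcutaneous fat of the groin (inguinal), EWAT the epididymal and NWAT the perirenal depot. The sources used here give neither the age of the mice nor the antigens of the sorting antibodies, and the mesenteric depot of the series is not analysed here. No source says that the replicates came from separate animals, so a p-value covers only the spread between these libraries, which may be technical.

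Angiotensinogen, the product of Agt, is the precursor that renin cuts to angiotensin I. Angiotensin-converting enzyme then makes angiotensin II, which acts on the type 1 receptor, a G protein-coupled receptor that raises cell calcium. White fat is a known source of angiotensinogen outside the liver. Endothelins act through the type A and type B receptors. The natriuretic peptides and nitric oxide act the other way on vessel tone: the receptor Npr1 and the soluble guanylate cyclase both make cGMP, which cGMP-dependent kinases read and phosphodiesterases degrade, while Npr3 takes natriuretic peptides up for clearance. In fat, natriuretic peptides are known to stimulate lipolysis through cGMP. Abcc9 codes for the sulphonylurea receptor SUR2 and Kcnj8 for the pore subunit Kir6.1 of a potassium channel known from vascular smooth muscle and pericytes.

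The start regions of 2 pairs of genes are shown because the members of each pair had their highest level in the same depot, Agt and Npr3 in EWAT and Abcc9 and Kcnj8 in SWAT. Each window runs from 250 bases before to 50 bases after an annotated start, 5′ to 3′ on the gene's strand, from RefSeq on GRCm38.p6. For Agt and Kcnj8 that start is the 5′ end of the gene span given below. For Npr3 and Abcc9 it lies inside the span, so their positions are not counted from the outermost gene end. The windows lie at chr8:124569657-124569956 (Agt), chr15:11907322-11907621 (Npr3), chr6:142702225-142702524 (Abcc9) and chr6:142571565-142571864 (Kcnj8), all on the minus strand. Capitals mark matches on either strand to the TATA box TATAAA, the CCAAT box, the GC box GGGCGG, the core TGACG of the cAMP response element and the steroid receptor element AGAACA, which do not overlap one another in these 4 windows.
Agt: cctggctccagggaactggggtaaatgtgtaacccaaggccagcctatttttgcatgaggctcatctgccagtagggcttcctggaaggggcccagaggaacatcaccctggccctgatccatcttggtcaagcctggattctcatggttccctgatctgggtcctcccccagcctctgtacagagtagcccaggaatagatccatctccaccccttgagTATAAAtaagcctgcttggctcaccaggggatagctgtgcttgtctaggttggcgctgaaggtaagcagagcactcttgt
Npr3: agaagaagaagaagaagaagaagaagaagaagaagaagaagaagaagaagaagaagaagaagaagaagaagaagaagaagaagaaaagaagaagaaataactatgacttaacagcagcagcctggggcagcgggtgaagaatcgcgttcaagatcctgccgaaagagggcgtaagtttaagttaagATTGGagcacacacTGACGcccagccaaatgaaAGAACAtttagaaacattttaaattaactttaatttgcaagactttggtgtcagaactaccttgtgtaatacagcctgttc
Abcc9: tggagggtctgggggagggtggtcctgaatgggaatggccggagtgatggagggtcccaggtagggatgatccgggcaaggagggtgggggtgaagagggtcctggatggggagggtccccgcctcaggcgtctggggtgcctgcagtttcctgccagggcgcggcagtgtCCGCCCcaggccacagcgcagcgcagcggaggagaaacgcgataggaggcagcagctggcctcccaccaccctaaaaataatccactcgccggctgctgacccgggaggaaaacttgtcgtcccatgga
Kcnj8: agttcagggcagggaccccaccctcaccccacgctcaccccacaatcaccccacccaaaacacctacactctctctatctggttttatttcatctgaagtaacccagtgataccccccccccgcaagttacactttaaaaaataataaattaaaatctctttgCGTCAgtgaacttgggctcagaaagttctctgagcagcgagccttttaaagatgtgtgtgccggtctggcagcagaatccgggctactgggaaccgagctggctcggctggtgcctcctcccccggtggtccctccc
The window of Agt holds TATAAA starting at base -30 from the start, and 13.6% of 32851 windows of this length hold that motif on either strand. The window of Npr3 holds CCAAT on the reverse strand at -64, TGACG at -50 and AGAACA at -31, motifs found in 37.4%, 20.8% and 19% of windows. Abcc9 holds GGGCGG on the reverse strand at -79, a motif in 35.7% of windows, and Kcnj8 holds TGACG on the reverse strand at -87. No motif of the 5 was shared by both genes of the Abcc9 and Kcnj8 pair or of the Agt and Npr3 pair. The 4 windows had GC contents of 54.7% for Agt, 39% for Npr3, 65.7% for Abcc9 and 53.3% for Kcnj8, against a median of 60.3% over 13653 windows of tested genes. Windows were found for 8 of the 10 genes, with none for Agtr1a and Prkg2.

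Agt was highest in EWAT, where Agtr1a was lowest. Agt had 50.8 and 62.6 CPM (counts per 1e6 reads, scaled by TMM factors) in the SWAT libraries, 343 and 379 CPM in EWAT and 31.8 and 32.6 CPM in NWAT. Both EWAT libraries lay far above the other 4, and the groups did not overlap. On the log2 scale Agt differed by -2.67 ± 0.13 for SWAT against EWAT (SE) and by 0.82 ± 0.13 against NWAT, and by 3.49 ± 0.13 for EWAT against NWAT. The gene spans chr8:124556587-124569706 on the minus strand. In bulk RNA, fewer cells of a type and less RNA per cell cannot be told apart, which holds for every level given here.

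Agtr1a, the gene of the type 1 angiotensin receptor (chr13:30336356-30382867, plus strand), had its lowest level in EWAT. It had 86.3 and 85.7 CPM in SWAT, 32.7 and 38.0 CPM in EWAT and 63.0 and 58.5 CPM in NWAT. EWAT was lowest in both libraries and SWAT highest, with log2 differences of 1.28 ± 0.11 for SWAT against EWAT and 0.50 ± 0.10 against NWAT, and -0.78 ± 0.11 for EWAT against NWAT. The ratio of receptor to precursor on the FPKM scale, which divides by gene length, was 1.41 and 1.12 in SWAT, 0.0784 and 0.084 in EWAT and 1.64 and 1.49 in NWAT. In EWAT the precursor transcript thus exceeded the receptor transcript per length, and in SWAT and NWAT it lay below it.

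Ace (chr11:105967948-105989964, plus strand) was the most abundant of the 10 genes in every library. It had 2922 and 2584 CPM in SWAT, 2232 and 1945 CPM in EWAT and 2054 and 1963 CPM in NWAT. SWAT stood above both other depots, while EWAT and NWAT overlapped, and the log2 differences were 0.40 ± 0.13 against EWAT and 0.45 ± 0.13 against NWAT for SWAT, and 0.06 ± 0.13 for EWAT against NWAT. On the scale of log2 (FPKM + 1) the difference of SWAT was 0.11 against EWAT and 0.26 against NWAT. The FPKM ratio of Ace to Agt was 21 and 15.1 in SWAT, 2.38 and 2.01 in EWAT and 23.7 and 22 in NWAT.

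**Figure D1:**
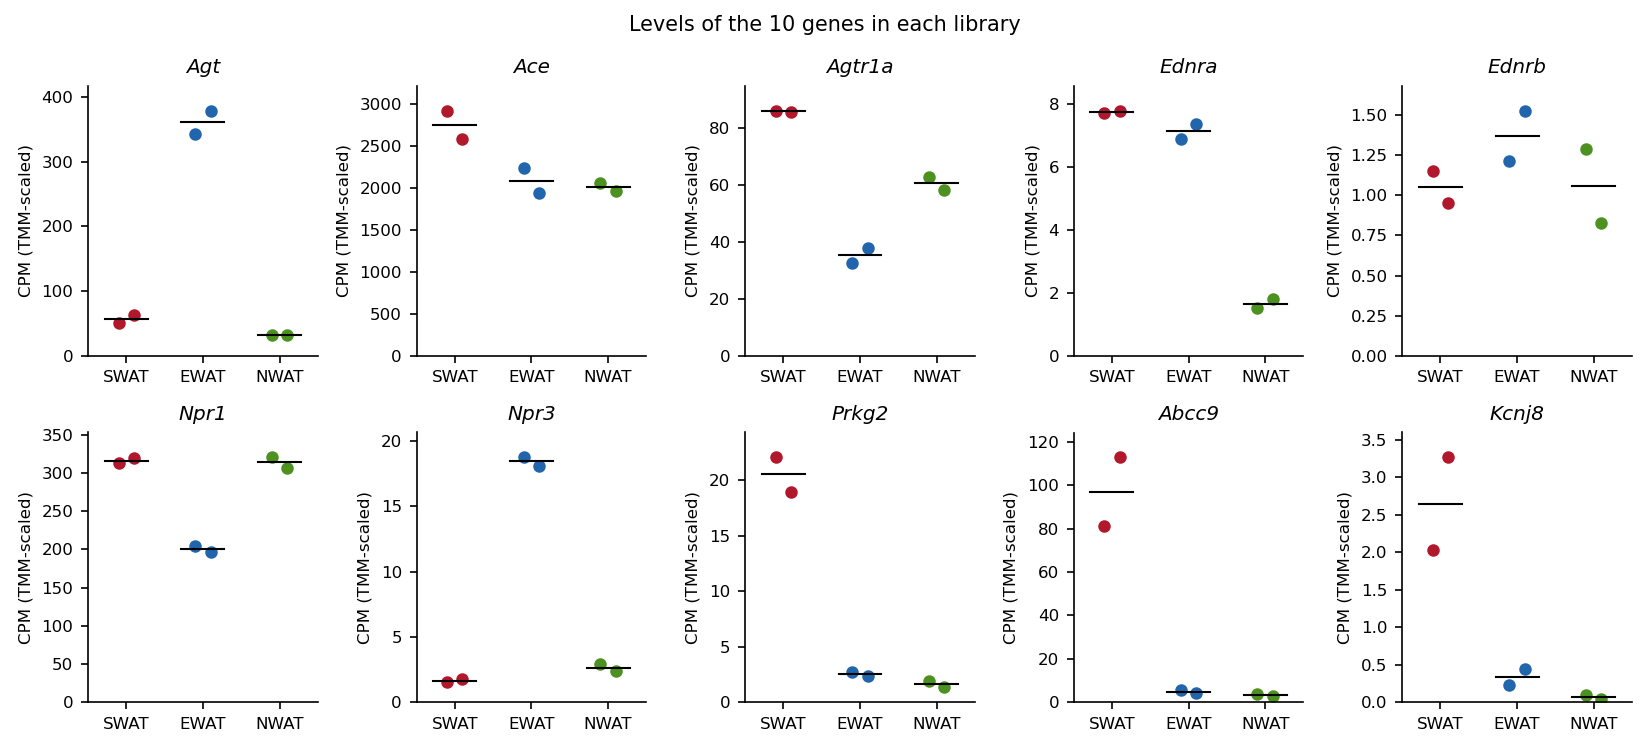
TMM-scaled CPM (linear axes from 0, a scale of its own for each gene) of the 10 genes in SWAT, EWAT and NWAT; points are the 2 libraries of a depot and bars their mean. Agt and Npr3 are highest in EWAT, at 343 and 379 CPM and at 18.8 and 18.1 CPM, while Prkg2, Abcc9 and Kcnj8 are highest in SWAT.

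Of the endothelin receptor genes, Ednra (chr8:77663029-77724452, minus strand) codes for the type A receptor, which mediates contraction in smooth muscle. Ednra had 7.73 and 7.80 CPM in SWAT, 6.91 and 7.37 CPM in EWAT and 1.53 and 1.79 CPM in NWAT. NWAT stood apart below the other 2 depots, with log2 differences of 2.22 ± 0.20 for SWAT and 2.10 ± 0.20 for EWAT, each against NWAT. SWAT and EWAT differed by 0.12 ± 0.17, a value that was -0.11 on the scale of log2 (FPKM + 0.1).

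Ednrb (chr14:103814615-103844508, minus strand), the gene of the type B receptor, was low everywhere. It had 1.15 and 0.949 CPM in SWAT, 1.21 and 1.53 CPM in EWAT and 1.29 and 0.825 CPM in NWAT, which rest on 17 to 34 reads a library. NWAT overlapped both other depots. The FPKM ratio of Ednra to Ednrb was 6.3 and 7.84 in SWAT, 5.85 and 4.04 in EWAT and 1.16 and 1.76 in NWAT, so that the type A receptor transcript was the more abundant per length in all 6 libraries.

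The natriuretic peptide receptor genes had opposite orders in EWAT and SWAT. Npr1 (chr3:90450591-90465928, minus strand), the cGMP-making receptor, had 313 and 320 CPM in SWAT, 204 and 196 CPM in EWAT and 321 and 307 CPM in NWAT. SWAT and NWAT overlapped, and EWAT lay below both, with log2 differences of 0.66 ± 0.10 for SWAT against EWAT and 0.01 ± 0.10 against NWAT, and -0.65 ± 0.10 for EWAT against NWAT. Npr3 (chr15:11839896-11907837, minus strand), the clearance receptor, had 1.53 and 1.79 CPM in SWAT, 18.8 and 18.1 CPM in EWAT and 2.96 and 2.38 CPM in NWAT. Its log2 differences were -3.46 ± 0.18 for SWAT against EWAT and -0.68 ± 0.22 against NWAT, and 2.79 ± 0.17 for EWAT against NWAT, with no overlap between depots. The FPKM ratio of Npr1 to Npr3 was 345 and 292 in SWAT, 18.1 and 17.4 in EWAT and 183 and 207 in NWAT. The cGMP-making receptor was thus the more abundant transcript per length in every library, by the smallest margin in EWAT.

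Prkg2 (chr5:98929773-99037375, minus strand), the gene of the membrane-bound type II cGMP-dependent kinase, was highest in SWAT. It had 22.1 and 19.0 CPM in SWAT, 2.75 and 2.34 CPM in EWAT and 1.91 and 1.41 CPM in NWAT. The SWAT libraries did not overlap the others, and the log2 differences were 3.01 ± 0.18 for SWAT against EWAT and 3.62 ± 0.19 against NWAT, and 0.61 ± 0.23 for EWAT against NWAT. The ratio of Prkg2 to Prkg1, the type I kinase gene, on the FPKM scale was 3.04 and 2.4 in SWAT, 0.543 and 0.396 in EWAT and 0.149 and 0.163 in NWAT. The kinase transcript of higher FPKM was therefore Prkg2 in SWAT and Prkg1 in EWAT and NWAT. The FPKM that 1 read of Prkg2 was worth, after scaling libraries, differed by up to 1.58 times between libraries, so its per-length levels are less certain than those of the other genes, whose largest such factor was 1.27 for Ednrb.

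Abcc9 (chr6:142587862-142702766) and Kcnj8 (chr6:142564837-142571614) are neighbours on the minus strand, 16247 bases apart with 0 annotated genes between them. Abcc9 had 81.0 and 113 CPM in SWAT, 5.84 and 4.13 CPM in EWAT and 3.82 and 2.91 CPM in NWAT. The SWAT libraries lay far above the rest, by 4.28 ± 0.21 against EWAT and 4.85 ± 0.23 against NWAT on the log2 scale, while EWAT and NWAT differed by 0.56 ± 0.26. Kcnj8 had the same order at lower levels, with 37 and 62 reads in SWAT, 5 and 10 reads in EWAT and 2 and 1 reads in NWAT. Scaled for library size, the SWAT reads of Kcnj8 were 7.75 times those of EWAT (exact 95% interval 4.48 to 14.4, covering counting error only) and 36.9 times those of NWAT (12.3 to 182). The FPKM ratio of Abcc9 to Kcnj8 was 12.3 and 10.5 in SWAT, and the reads of Kcnj8 in EWAT and NWAT are too few for a ratio there.

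Among the 10 genes, 9 passed the joint edgeR test of any depot difference at an adjusted p of 0.05, all but Ednrb, against 41.7% of all genes tested. For SWAT against EWAT 6 were past the threshold and higher, where 18.0% of all genes were, and 2 were lower, where 18.7% were. For SWAT against NWAT 7 were higher and 1 lower, with 9.07% and 9.83% of all genes. For EWAT against NWAT 3 were higher and 2 lower, with 13.3% and 14.0% of all genes. The set was chosen on these contrasts, so nothing is read from the counts. The median log2 difference of the 10 genes was 0.53, 0.66 and 0.59 in the same 3 pairs, beside -0.009, -0.015 and 0.011 over all genes tested.

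**Figure D2:**
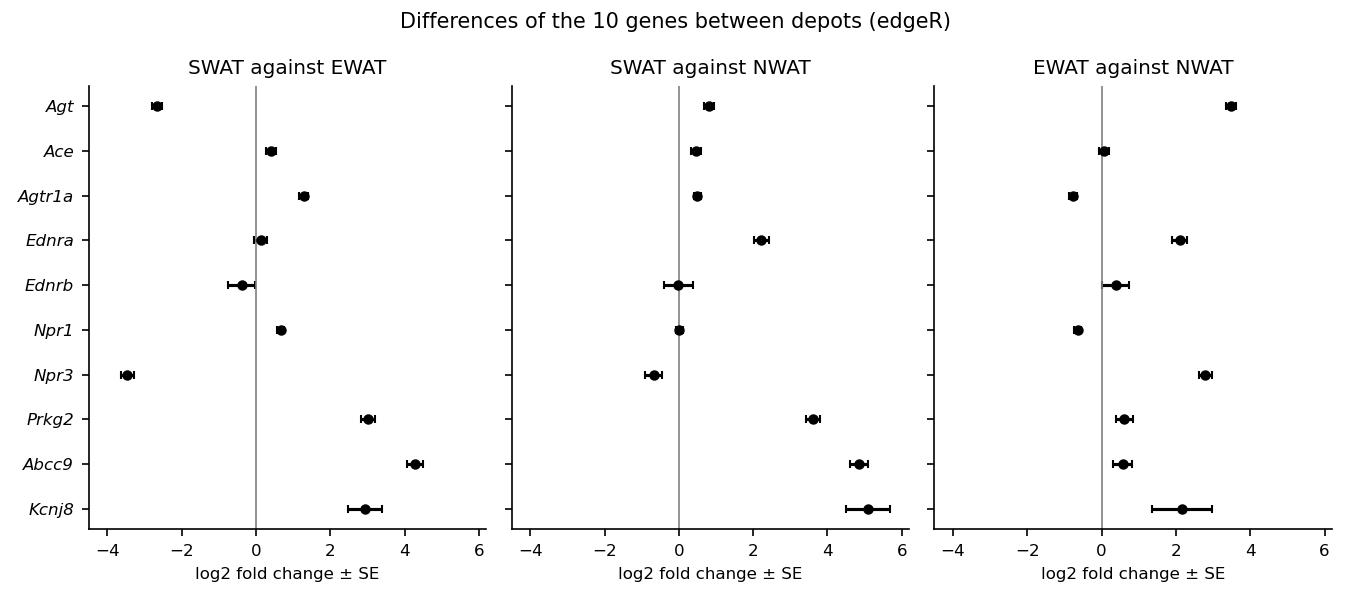
Log2 fold changes of the 10 genes with their SE for SWAT against EWAT, SWAT against NWAT and EWAT against NWAT, from edgeR over 2 libraries a depot; values right of 0 are higher in the depot named first. Agt and Npr3 lie at -2.67 and -3.46 for SWAT against EWAT, and Prkg2 and Abcc9 at 3.01 and 4.28; Kcnj8 against NWAT rests on 3 reads in NWAT.

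Per gene length, Ace led in each depot, with a mean of 499 FPKM in SWAT, 461 FPKM in EWAT and 416 FPKM in NWAT. In SWAT the order continued with Npr1 (71.0 FPKM), Agtr1a (35.1), Agt (28.2), Abcc9 (11.8), Prkg2, Ednra and Kcnj8, and none of these neighbours overlapped. Ednrb and Npr3 came last in SWAT and overlapped, at means of 0.275 and 0.225 FPKM. In EWAT Agt was second, at a mean of 211 FPKM, followed by Npr1, Agtr1a, Npr3 and Ednra without overlap, and Prkg2 and Abcc9 overlapped at 0.795 and 0.71 FPKM. In NWAT Npr1, Agtr1a and Agt followed Ace at 80.5, 28.4 and 18.2 FPKM, and Ednra, Abcc9, Npr3 and Prkg2 lay between 0.41 and 0.47 FPKM on average with each overlapping the next.

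**Figure D3:**
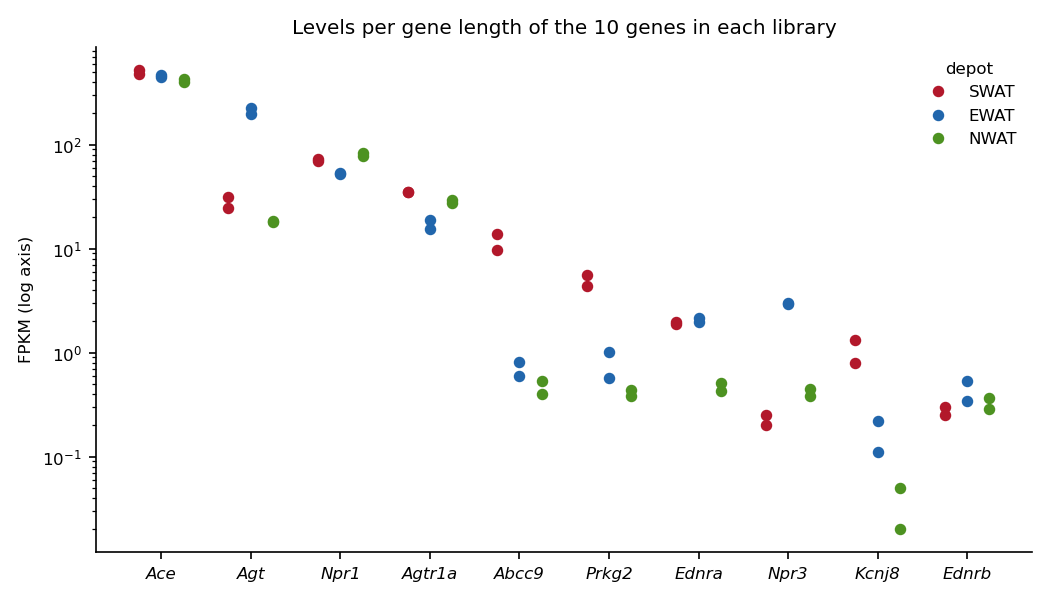
FPKM values (log axis) of the 10 genes in the 2 libraries of SWAT, EWAT and NWAT, ordered by their sum over depots. Ace is highest in every library, Agt is second in EWAT at a mean of 211 FPKM and below Npr1 and Agtr1a in SWAT and NWAT, and Kcnj8 in NWAT is lowest.

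The genes whose profiles over the 6 libraries were most like those of the 4 leading genes were ranked by the root mean square difference of centred log2 CPM among 10530 genes. For Agt these were Cpxm2, Ogfrl1 and Rem1, at 0.255, 0.297 and 0.339 log2 units. For Ednra they were Angpt1 at 0.0737, Ism1 at 0.178 and Pde11a at 0.206. Angpt1 had 58.5 and 57.0 CPM in SWAT, 45.4 and 49.3 CPM in EWAT and 10.9 and 12.5 CPM in NWAT, the order seen for Ednra. For Prkg2 they were Osr2 (0.253), Cldn10 (0.389) and Cpz (0.439), and for Abcc9 they were Prg4 (0.487), Prkg2 itself (0.633) and Itga7 (0.672). The likeness to Abcc9 was loosest, and the SWAT libraries of Prg4 were themselves apart, at 81.8 and 169 CPM.

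The other genes of the same systems were taken from 7 pathway lists, which name 71 genes besides the 10, of which 67 are in the files and 51 were tested. In the joint test 42 of the 51 differed between depots, where 41.7% of all genes did. The lists were chosen with earlier results of these data known, so nothing is read from their counts, here or for each list below. SWAT against EWAT had 20 that rose and 14 that fell, SWAT against NWAT 15 and 12, and EWAT against NWAT 12 and 19, with 18.0% and 18.7%, 9.07% and 9.83%, and 13.3% and 14.0% of all genes in the same order. The median log2 differences of the 51 were 0.22, 0.00 and -0.15. In limma on log2 (FPKM + 1), the same 3 comparisons gave 13 up and 19 down, 10 up and 14 down, and 13 up and 17 down. On that scale the log2 differences of all genes shifted by a median of -0.215, -0.173 and 0.041, and the share of calls that were higher was 20%, 20.4% and 58.3%, against 49.1%, 48% and 48.8% on counts. Without NWAT replicate 1 the calls for SWAT against NWAT numbered 17 instead of 27.

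Of the 13 tested angiotensin genes, 4 rose and 3 fell in SWAT against EWAT, where 18.0% and 18.7% of all genes did. The largest difference was that of Mme, the gene of neprilysin, a peptidase that degrades angiotensins and natriuretic peptides. Mme had 169 and 204 CPM in SWAT, 6.17 and 4.99 CPM in EWAT and 63.4 and 75.6 CPM in NWAT. It rose by 5.07 ± 0.16 in SWAT against EWAT (edgeR adjusted p = 1.78e-09) and by 1.43 ± 0.13 in SWAT against NWAT (edgeR adjusted p = 1.71e-05), and it changed by -3.64 ± 0.16 in EWAT against NWAT (edgeR adjusted p = 6.03e-08). EWAT thus had the most Agt and the least Mme transcript of the 3 depots. Anpep, the gene of aminopeptidase N, which trims angiotensin III, rose by 1.40 ± 0.11 in SWAT against EWAT and changed by -1.52 ± 0.11 in EWAT against NWAT (edgeR adjusted p = 2.39e-06 and 2.35e-06). Bdkrb2, the bradykinin B2 receptor gene, fell in SWAT against EWAT with a log2 difference of -1.65 ± 0.29 (edgeR adjusted p = 0.00101) and rose by 1.48 ± 0.28 in EWAT against NWAT (edgeR adjusted p = 0.00228).

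Agtr2, the type 2 angiotensin receptor gene, was a rare transcript, with 17 and 15 reads in SWAT, 4 and 3 reads in EWAT and 40 and 46 reads in NWAT. It rose by 2.38 ± 0.51 in SWAT against EWAT and changed by -3.64 ± 0.45 in EWAT against NWAT (edgeR adjusted p = 0.00388 and 0.000111). The fall in SWAT against NWAT, -1.26 ± 0.35 with an edgeR adjusted p of 0.0261, did not pass without either SWAT library or either NWAT library, with values of -1.38 to -1.14, or in DESeq2, with -1.25. The FPKM ratio of Agtr1a to Agtr2 was 120 and 141 in SWAT, 221 and 376 in EWAT and 42.9 and 34.1 in NWAT. Ren1, the renin gene, had 0 reads in both SWAT libraries, 3 and 8 reads in EWAT and 5 and 2 reads in NWAT, while Agtr1b had 1 read in 1 EWAT library and 0 elsewhere. The reads of both genes were too few to be tested, and a count of 0 allows up to 3 reads in a library.

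Of the endothelin genes, 3 were tested besides the receptors, and all 3 rose in SWAT against EWAT, where 18.0% of all genes did. Edn1, the endothelin-1 gene, had 60.0 and 34.8 CPM in SWAT, 23.9 and 19.5 CPM in EWAT and 77.9 and 60.2 CPM in NWAT. The SWAT libraries differed from each other and both lay above EWAT, by 1.13 ± 0.27 (edgeR adjusted p = 0.0164), while EWAT against NWAT gave -1.67 ± 0.27 (edgeR adjusted p = 0.00402). Without EWAT replicate 1 or 2 neither call passed, at 1.28 and 1.00 for SWAT against EWAT and -1.82 and -1.54 for EWAT against NWAT. The call for SWAT against EWAT was also lost with no filter on low counts (1.13) and in limma on log2 (FPKM + 1) with no filter (0.79). Leaving out SWAT replicate 1 gave 0.68 and leaving out SWAT replicate 2 gave 1.47 for SWAT against EWAT. NWAT, which had the lowest Ednra, thus had the highest mean Edn1, although Edn1 in SWAT against NWAT, at -0.55 ± 0.26, did not pass (edgeR adjusted p = 0.203). That comparison passed with the replicate block (-0.57), without SWAT replicate 1 (-0.99) and in limma on log2 (FPKM + 1) and log2 (FPKM + 0.1), at -0.74 and -0.77. Edn1 is also made by endothelial cells: the summed CPM of 9 endothelial markers was 250 to 286 in SWAT, 204 to 236 in EWAT and 349 to 369 in NWAT, most of it Tek, and its part in the result was not tested. Tek alone had 260 and 223 CPM in SWAT, 219 and 178 CPM in EWAT and 355 and 334 CPM in NWAT. None of the 9 was at 0, and Cdh5 had 6.80 and 6.33 CPM in SWAT, 4.16 and 4.99 CPM in EWAT and 3.25 and 3.93 CPM in NWAT. In edgeR 2 of the 9 rose and none fell in SWAT against EWAT. In SWAT against NWAT 4 rose and in EWAT against NWAT 2 did, while only Tek fell in each. In the same order, 18.0% and 18.7%, 9.07% and 9.83%, and 13.3% and 14.0% of all genes rose and fell. The converting enzyme gene Ece1 rose by 0.50 ± 0.11 in SWAT against EWAT (edgeR adjusted p = 0.00518), a call lost without SWAT replicate 1 (0.45), and Ece2 rose by 1.12 ± 0.16 (edgeR adjusted p = 0.000194). On log2 (FPKM + 1) neither passed, at 0.26 for Ece1 and 0.30 for Ece2. Edn2 and Edn3 had 0 to 2 reads a library.

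The natriuretic peptide genes themselves had few reads. Nppa had 1 to 7 reads a library and Nppb 0 or 1, while Nppc, the C-type peptide gene, had 3 and 2 reads in SWAT, 6 and 20 reads in EWAT and 5 and 4 reads in NWAT. Npr2, the receptor gene for the C-type peptide, had 98.1 and 94.1 CPM in SWAT, 103 and 92.8 CPM in EWAT and 125 and 118 CPM in NWAT. The FPKM ratio of Npr1 to Npr2 was 3.2 and 3.44 in SWAT, 1.99 and 2.04 in EWAT and 2.6 and 2.61 in NWAT. Npr2 differed by -0.34 ± 0.10 in SWAT against NWAT (edgeR adjusted p = 0.0395) and by -0.31 ± 0.10 in EWAT against NWAT (edgeR adjusted p = 0.0411). The first call was lost without either SWAT or either NWAT library (-0.37 to -0.29), and the second without any 1 library other than EWAT replicate 1 (-0.35 to -0.24).

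Of 11 tested genes of nitric oxide, guanylate cyclase and cGMP kinase, 3 rose and 3 fell both in SWAT against EWAT and in SWAT against NWAT. Of all genes, 18.0% and 18.7% did in the first pair and 9.07% and 9.83% in the second. Gucy1a1 and Gucy1b1 code for the 2 subunits of soluble guanylate cyclase, the nitric oxide receptor. Gucy1a1 had 21.3 and 32.4 CPM in SWAT, 1.82 and 2.38 CPM in EWAT and 3.91 and 4.32 CPM in NWAT. It rose by 3.67 ± 0.23 in SWAT against EWAT (edgeR adjusted p = 5.35e-07) and by 2.71 ± 0.21 in SWAT against NWAT (edgeR adjusted p = 8.26e-06). Gucy1b1 had 17.5 and 23.3 CPM in SWAT, 2.24 and 2.61 CPM in EWAT and 4.63 and 6.36 CPM in NWAT, and rose by 3.07 ± 0.21 and 1.89 ± 0.19 in the same 2 comparisons (edgeR adjusted p = 5.99e-07 and 3.22e-05). Both subunits were therefore highest in SWAT, like Prkg2. In EWAT against NWAT Gucy1b1 changed by -1.18 ± 0.23 (edgeR adjusted p = 0.0027) and Gucy1a1 by -0.96 ± 0.26 (edgeR adjusted p = 0.02), the second of which was lost without any 1 of the EWAT or NWAT libraries (-1.18 to -0.79).

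Nos1, a nitric oxide synthase gene, was low and lowest in SWAT, with 1.26 and 0.738 CPM in SWAT, 7.66 and 5.84 CPM in EWAT and 7.83 and 7.18 CPM in NWAT. It fell in SWAT against EWAT with a log2 difference of -2.75 ± 0.27 and in SWAT against NWAT with -2.91 ± 0.27 (edgeR adjusted p = 1.19e-05 and 1.58e-05). Mrvi1, the gene of a substrate of the type I kinase that lowers calcium release (also called Irag1), was highest in EWAT, with 6.14 and 7.49 CPM in SWAT, 42.8 and 35.6 CPM in EWAT and 10.5 and 11.6 CPM in NWAT. Its log2 differences were -2.52 ± 0.15 for SWAT against EWAT (edgeR adjusted p = 1.34e-07) and 1.83 ± 0.14 for EWAT against NWAT (edgeR adjusted p = 2.32e-06). Prkg1 itself had 14.3 and 13.8 CPM in SWAT, 12.5 and 9.17 CPM in EWAT and 17.9 and 15.9 CPM in NWAT. It differed by -0.64 ± 0.15 in EWAT against NWAT (edgeR adjusted p = 0.00968), a call lost without EWAT replicate 2 (-0.43) or NWAT replicate 1 (-0.55). Gch1, which makes the synthase cofactor, fell in SWAT against NWAT, at -1.62 ± 0.29 (edgeR adjusted p = 0.00327).

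Of the 9 tested phosphodiesterase genes, 4 rose and 2 fell in each comparison of SWAT. The shares of all genes were 18.0% and 18.7% against EWAT and 9.07% and 9.83% against NWAT. Pde2a, whose product is activated by cGMP, rose by 1.67 ± 0.16 in SWAT against EWAT and by 1.91 ± 0.16 in SWAT against NWAT (edgeR adjusted p = 8.8e-06 and 8.71e-06). Pde3b, whose product is inhibited by cGMP, rose by 1.19 ± 0.13 and 1.43 ± 0.13 (edgeR adjusted p = 2.5e-05 and 1.54e-05), and Pde1b by 1.70 ± 0.26 and 1.64 ± 0.26 (edgeR adjusted p = 0.000389 and 0.000942). Pde11a, whose product degrades both cAMP and cGMP, had 62.0 and 71.3 CPM in SWAT, 72.8 and 55.9 CPM in EWAT and 16.5 and 20.8 CPM in NWAT. It rose by 1.84 ± 0.16 in SWAT against NWAT and by 1.79 ± 0.16 in EWAT against NWAT (edgeR adjusted p = 1.41e-05 and 1.26e-05), and SWAT and EWAT overlapped. Pde10a was highest in NWAT, at 46.3 and 47.9 CPM, against 31.3 and 26.4 CPM in SWAT and 22.5 and 16.9 CPM in EWAT, and its value in EWAT against NWAT was -1.26 ± 0.14 (edgeR adjusted p = 5.45e-05).

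Of 13 tested genes of other vasoactive ligands and receptors, 5 rose and 6 fell in SWAT against EWAT, where 18.0% and 18.7% of all genes did. Avpr1a, the vasopressin V1a receptor gene, and F2r, the thrombin receptor gene, were highest in EWAT, as Agt and Npr3 were. Avpr1a had 17.9 and 15.1 CPM in SWAT, 109 and 114 CPM in EWAT and 32.9 and 23.7 CPM in NWAT, with -2.76 ± 0.15 for SWAT against EWAT and 1.98 ± 0.15 for EWAT against NWAT (edgeR adjusted p = 1.66e-07 and 3.14e-06). F2r had 6.96 and 4.85 CPM in SWAT, 41.2 and 37.4 CPM in EWAT and 6.82 and 6.16 CPM in NWAT, with -2.73 ± 0.16 and 2.60 ± 0.16 (edgeR adjusted p = 1.35e-07 and 4.45e-07). Calcrl, the receptor gene for adrenomedullin and calcitonin gene-related peptide, was lowest in EWAT, with 98.8 and 83.7 CPM in SWAT, 37.9 and 30.8 CPM in EWAT and 90.3 and 84.9 CPM in NWAT. Ramp1, which gives that receptor its preference for calcitonin gene-related peptide, was highest in EWAT and rose by 3.18 ± 0.30 in EWAT against NWAT (edgeR adjusted p = 3.42e-05).

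The 3 tested α1-adrenoceptor genes had different orders over the depots. Adra1d was highest in SWAT, with 8.94 and 8.23 CPM in SWAT, 0.514 and 0.404 CPM in EWAT and 1.86 and 1.46 CPM in NWAT, and rose by 4.21 ± 0.28 in SWAT against EWAT and by 2.37 ± 0.23 in SWAT against NWAT (edgeR adjusted p = 3.96e-07 and 2.35e-05). Adra1b was highest in NWAT, with 24.8 and 20.5 CPM in SWAT, 28.5 and 31.1 CPM in EWAT and 59.7 and 51.0 CPM in NWAT, at -1.29 ± 0.13 for SWAT against NWAT (edgeR adjusted p = 2.37e-05) and -0.89 ± 0.12 for EWAT against NWAT (edgeR adjusted p = 0.000249). Adra1a had at most 3.91 CPM in any library. Among prostanoid receptor genes, Ptger3 rose by 1.88 ± 0.25 in SWAT against EWAT (edgeR adjusted p = 0.000168), Tbxa2r fell at -2.13 ± 0.29 in the same comparison (edgeR adjusted p = 0.000162), and Ptgir rose by 1.04 ± 0.14 in EWAT against NWAT (edgeR adjusted p = 0.000234).

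**Figure D4:**
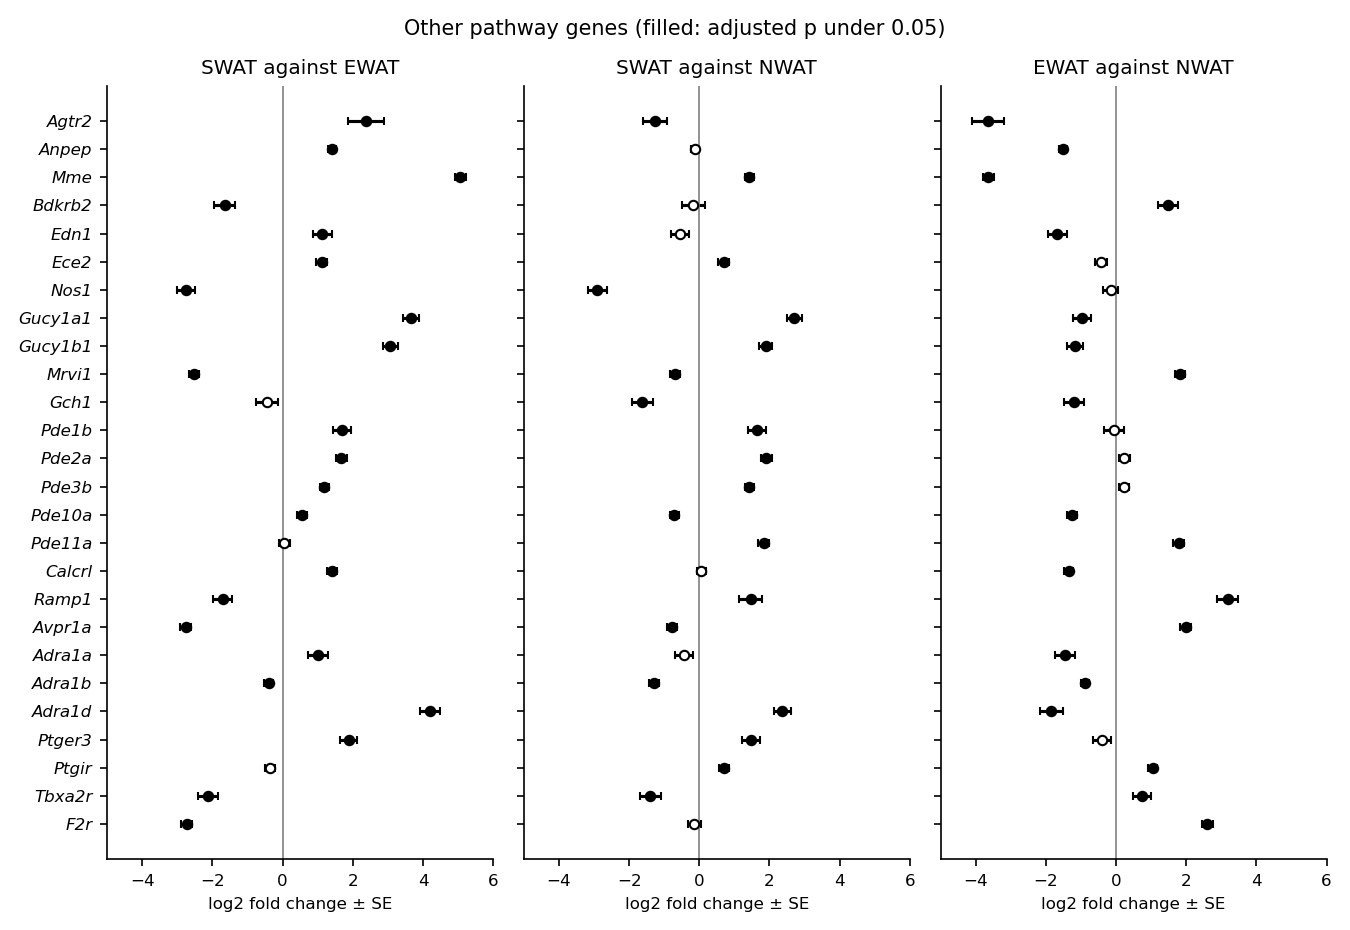
Log2 fold changes with SE of the 26 pathway genes besides the 10 that passed in at least 1 pair with a log2 change of 1 or more and a mean of 1 CPM or more; filled points have an edgeR adjusted p under 0.05, and values right of 0 are higher in the depot named first. Mme lies at 5.07 and Gucy1a1 at 3.67 for SWAT against EWAT, where Nos1, Avpr1a and F2r lie at -2.75, -2.76 and -2.73.

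Abcc9, Kcnj8, Ednra and the guanylate cyclase genes are also known from pericytes and smooth muscle, so markers of those cells are given beside them. The summed CPM of 9 pericyte and mural markers was 104 to 118 in SWAT, 187 to 195 in EWAT and 57.6 to 59.2 in NWAT. Of these sums Des alone made 6.09 and 4.17 CPM in SWAT, 90.9 and 95.8 CPM in EWAT and 16.9 and 15.5 CPM in NWAT. The order of SWAT and EWAT in the sum thus rests on Des, and without Des the sums of SWAT and EWAT overlapped. The summed CPM of 7 smooth muscle markers was 7.68 to 12.9 in SWAT, 60.5 to 63.7 in EWAT and 4.22 to 6.87 in NWAT. The pericyte marker Higd1b had 0 reads in both SWAT libraries, 4 and 13 reads in EWAT and 3 and 1 reads in NWAT, too few to be tested. Rgs5 had 2.85 and 3.43 CPM in SWAT, 7.10 and 7.28 CPM in EWAT and 3.58 and 2.43 CPM in NWAT. Cspg4 had 3.18 and 4.27 CPM in SWAT, 2.2 and 2.02 CPM in EWAT and 3.58 and 3.93 CPM in NWAT. In edgeR 2 of the 7 tested pericyte and mural markers, Cspg4 and Notch3, rose in SWAT against EWAT and 4 fell. All 4 tested smooth muscle markers fell in that pair, where 18.0% of all genes rose and 18.7% fell. In SWAT against NWAT, 3 mural markers rose and 1 fell, with a median log2 difference of 0.67, and 1 smooth muscle marker rose and none fell. Of all genes, 9.07% rose and 9.83% fell in that pair. Vtn, among the mural markers, had 48.6 and 47.6 CPM in SWAT, 60.1 and 64.1 CPM in EWAT and 14.08 and 16.3 CPM in NWAT. Notch3, which marks mural cells, was higher in SWAT, with 34.7 and 50.2 CPM in SWAT, 14.43 and 12.04 CPM in EWAT and 16.13 and 14.99 CPM in NWAT. SWAT replicate 2 exceeded SWAT replicate 1 in Abcc9 by 1.39 times, in Kcnj8 by 1.61, in Gucy1a1 by 1.52, in Gucy1b1 by 1.33 and in Notch3 by 1.45, where the central 90% of 12320 genes ran from 0.789 to 1.4. The same ratio was 0.859 for Prkg2, 1.2 for Rgs5 and 1.34 for Cspg4. Of the other tested mural markers, Ndufa4l2 had 6.91 and 7.01 CPM in SWAT replicates 1 and 2. Mcam had 1.37 and 1.16 CPM, and Des and Vtn were also lower in replicate 2. The 6 markers of Schwann cells and glia summed to 13.22 and 21.04 CPM in SWAT, 5.18 and 7.68 CPM in EWAT and 6.54 and 5.09 CPM in NWAT. The part of mural, smooth muscle or glial cells in these results was not tested.

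**Figure D5:**
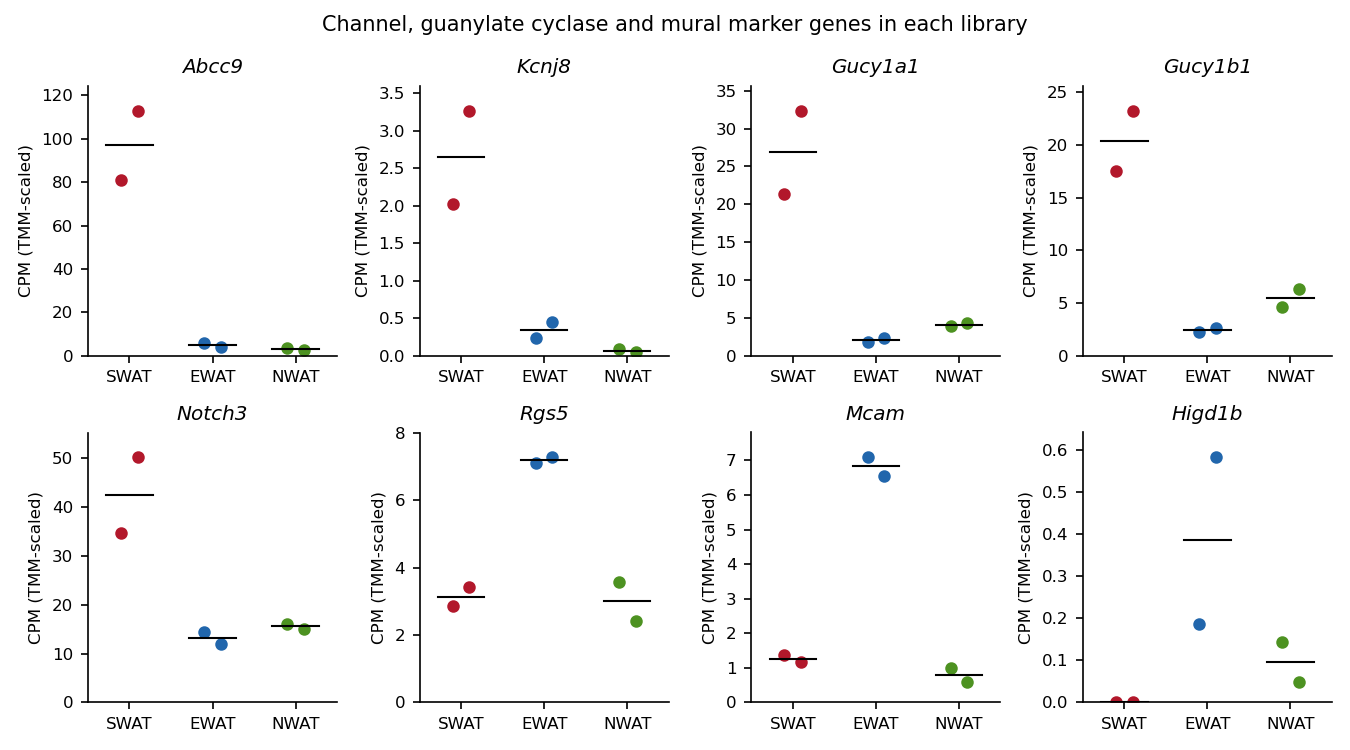
TMM-scaled CPM (linear axes from 0, a scale of its own for each gene) of Abcc9, Kcnj8, the guanylate cyclase genes Gucy1a1 and Gucy1b1 and the mural markers Notch3, Rgs5, Mcam and Higd1b in the 2 libraries (points) of SWAT, EWAT and NWAT, with the mean as a bar. Abcc9, Kcnj8, Gucy1a1, Gucy1b1 and Notch3 are highest in SWAT, Rgs5 and Mcam in EWAT, and Higd1b, with at most 13 reads in a library, has 0 in SWAT.

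Agt, Npr3, Mrvi1, Avpr1a and F2r were highest in EWAT, as were the tested smooth muscle markers. Myh11 had 3.67 and 5.22 CPM in SWAT, 27.1 and 23.8 CPM in EWAT and 1.91 and 1.02 CPM in NWAT. In SWAT against NWAT the log2 differences of the 4 tested markers were 1.60 for Myh11, 1.17 for Acta2, 0.55 for Tagln and -0.83 for Lmod1. Only that of Myh11 passed in edgeR. For the same pair the value was 0.82 for Agt and -0.68 for Npr3. It was -0.69 for Mrvi1, -0.78 for Avpr1a and -0.14 for F2r. In edgeR the 4 tested smooth muscle markers also all rose in EWAT against NWAT, where 13.3% of all genes did, and their part in these results was not tested. The 7 mesothelial markers, mainly Wt1, summed to 3.51 to 4.11 CPM in SWAT, 160 to 169 CPM in EWAT and 118 to 146 CPM in NWAT. Wt1 had 0 CPM in SWAT, 152 and 161 CPM in EWAT and 106 and 135 CPM in NWAT. Krt19 was highest in NWAT, at 6.39 and 6.21 CPM, and lowest in EWAT, at 0.607 and 0.809 CPM. Of the 6 tested in edgeR, 1 rose and 5 fell in SWAT against EWAT, where 18.0% and 18.7% of all genes did. None rose in the other pairs. In SWAT against NWAT 5 fell and in EWAT against NWAT 1 did, beside 9.83% and 14.0% of all genes. The 8 macrophage and leukocyte markers summed to 12.4 to 22.4 CPM in SWAT, 27.8 to 30.6 CPM in EWAT and 18.2 CPM in both NWAT libraries. Of the 7 tested in edgeR, 3 fell in SWAT against EWAT and 3 rose in EWAT against NWAT, with none the other way. The shares of all genes were 18.7% and 13.3%. The part of mesothelial cells and leukocytes in these results was not tested. In the 6 libraries analysed, none of the 11 adipose stem cell markers was at 0. In edgeR 5 of them rose and 2 fell in SWAT against EWAT, 2 rose and 2 fell in SWAT against NWAT, and 1 rose and 5 fell in EWAT against NWAT. In the same order, 18.0% and 18.7%, 9.07% and 9.83%, and 13.3% and 14.0% of all genes did. Pi16, a marker of one progenitor state, had 2056 and 1804 CPM in SWAT, 587 and 596 CPM in EWAT and 3754 and 2973 CPM in NWAT, and the part of progenitor states in these results was not tested. Library totals lay between 20026413 and 20638724 estimated counts, and globin and other red blood cell genes stood at 220 CPM in NWAT replicate 2 against 7.68 to 18.5 CPM elsewhere. The counting's strand setting is not given, so reads of opposite-strand genes that share 91 to 559 exon bases with Ace, Ednra, Npr1, Npr3 and Abcc9 (GENCODE M21) cannot be told apart from theirs.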

How the data were processed

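The authors deposited estimated counts by gene symbol, not normalized per the file headers and 31.7% to 33.1% not whole, and a table of FPKM values, which divide by gene length and library size per the file headers. Per the submitters' processing notes the build is GRCm38.p6, with Cell Ranger and Seurat listed without roles; the sources used here name no aligner, counter or strand. There were 2 columns per table that match no label and were not used, so comparisons with the mesenteric depot were not run. Counts were rounded, scaled by TMM (factors 0.893 to 1.08) and filtered with filterByExpr (count minimum 10, total minimum 15), leaving 13694 genes. Depots were fitted as 1 factor to the 6 libraries by quasi-likelihood in edgeR 4.0.16 (R 4.3.3; 3 residual degrees of freedom; biological coefficient of variation 0.0979), with Benjamini-Hochberg adjustment at 0.05 over all genes; it was tested on simulated data. SE is the absolute log2 fold change over the square root of F.

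The 10 genes, the pathway and marker lists were chosen with earlier results of these data known. Pathway genes are named if past the threshold in a pair with a log2 change of at least 1 and a mean of at least 1 CPM; fixed ligands, enzymes and receptors are named at any value, save some not reported here, and marker genes as examples. Nearest profiles are the 3 closest among genes whose log2 CPM averaged 2 or more (prior count 2). Alternatives were DESeq2 1.42.0, limma 3.58.1 on FPKM, other scaling and filters, a replicate block and leaving out each library. Replicates are not duplicates: counts of 2 libraries of a depot differed by 9.34 to 19.5 times the sampling variance.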

Additional observations from a re-analysis of the deposited data

How the results depend on the processing

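Without 1 library at a time, a fit that pools the spread and assumes the lone library varies like the others called 3085 to 5672 of all genes for SWAT against EWAT (5020 with all 6), 1467 to 3323 for SWAT against NWAT (2588), 2129 to 4884 for EWAT against NWAT (3743) and 4084 to 6882 jointly (5714). Pathway genes called were 28 to 37 (34), 17 to 29 (27), 21 to 31 (31) and 37 to 43 (42), the lowest for SWAT against NWAT being that without NWAT replicate 1. Only 1 sample is then left in a depot. Under the other alternatives these counts stayed within 1.5 times. Deviations of same-numbered libraries correlated at 0.000549, 0.0375 and 0.11 in the 3 pairs. With 1 difference per depot, these values cannot tell whether replicate numbers mark a shared source. The replicate block gave 36, 27 and 29 pathway genes in the 3 pairs and 42 jointly, and 5043, 2595, 3793 and 5743 of all genes. No named value that passed changed sign. Of the named pathway genes' values, 53 lost and 3 gained a call in leaving out 1 library (466 unchanged in call), and 33 lost and 11 gained one otherwise (652 unchanged), the cause not being tested. Of the 10 genes' values 65 of the other alternatives' moved by over 1 SE and 175 did not. Low FPKM values shrink on log2 (FPKM + 1): Kcnj8 for SWAT against EWAT gave 0.81, against 2.93 on counts. Depth limits Ednrb, Kcnj8, Agtr2 and the peptide ligand genes.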
